A study of Mus musculus with 6 samples.

Results

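The C-type lectin receptors of mouse macrophages were followed as 10 genes, picked by name from the 55335 genes of a count table: Clec4e, Clec4d, Clec4n, Clec4a1, Clec4a2, Clec4a3, Clec5a, Clec7a, Clec12a and Mrc1. The choice was made with earlier results of these data known, so counts of members beside all tested genes are descriptions only. All 10 passed the filter on low counts and were tested. Total RNA of bone marrow-derived macrophages (BMDMs) was sequenced in 6 libraries, 3 of PBS-treated cells and 3 of cells that received LPS, a bacterial cell wall component that activates macrophages through TLR4, for 1 h. The cells of both groups came from C57BL/6 mice, with no engineered allele and no further agent, and had grown for 6 days in medium with 10% fetal bovine serum and 20% L929-conditioned medium, which supplies the macrophage growth factor. The study used male mice of 7 to 10 weeks, and its sources do not say whether the 3 libraries of a group came from separate animals, so p-values measure the spread between these libraries, which may be technical. The library totals lay between 37787611 and 41516330 counts. LPS replicate 3 stood somewhat apart: the counts of its pairs with the other LPS libraries differed with a chi-square per degree of freedom of 13.9 and 20.5, against 5.44 to 7.21 for all other pairs within a group. Without it Clec4e was at 4.92, Clec4d at 1.69 and Clec5a at 1.35 on the log2 scale of the change after LPS, the same 3 members passed both criteria given below, and 7 in place of 8 members rose by the adjusted p, Clec12a being the one that no longer passed.

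C-type lectin receptors are surface proteins that bind sugars and lipids of microbes, or molecules of damaged cells, through a shared extracellular fold. Several signal through an activating motif: Clec4e (Mincle), Clec4d (MCL) and Clec4n (Dectin-2) borrow it from the Fc receptor gamma chain, Clec5a borrows it from DAP12, and Clec7a (Dectin-1) carries a short version in its own tail. The kinase Syk reads this motif and passes the signal through Card9, Bcl10 and Malt1 to NF-kappaB. Clec4a2 (DCIR) and Clec12a carry an inhibitory motif instead, and Mrc1, the mannose receptor CD206, mainly takes up its ligands. LPS acts through TLR4 instead, and the comparison asks which of the receptor transcripts differed 1 h after it was added.

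The study called a gene changed when its adjusted p was below 0.05 and its log2 fold change beyond 1 in either direction. Of the 10 genes, 3 rose past both criteria: Clec4e, Clec4d and Clec5a. Over all 15687 tested genes, 10.5% rose past these criteria in edgeR's quasi-likelihood test with Benjamini-Hochberg adjustment. None of the 10 fell past them, where 10.4% of all tested genes did, and 0 members were lower at an unadjusted p under 0.05, or in DESeq2 or limma voom. By the adjusted p alone, 8 of the 10 rose and 0 fell, beside 32.9% and 34.9% of all tested genes, and the median log2 fold change of the 10 was 0.48, beside -0.01 over all tested genes. In those 8 genes every LPS library lay above every PBS library, as in 33.9% of all tested genes, and 0 genes had every LPS library below, where 36.6% of all tested genes did. Levels are given as CPM, counts scaled to a common library total with the TMM factors. These values rest on TMM scaling, whose factors averaged 1.15 in PBS and 0.869 in LPS libraries. Scaling by library size alone moved the median of all tested genes to -0.42, and 5 members then rose and 3 fell by the adjusted p, with 15.01% of all tested genes rising and 65.9% falling. Upper quartile scaling, with an overall median of -0.16, gave 7 rises and 1 fall.

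**Figure D1:**
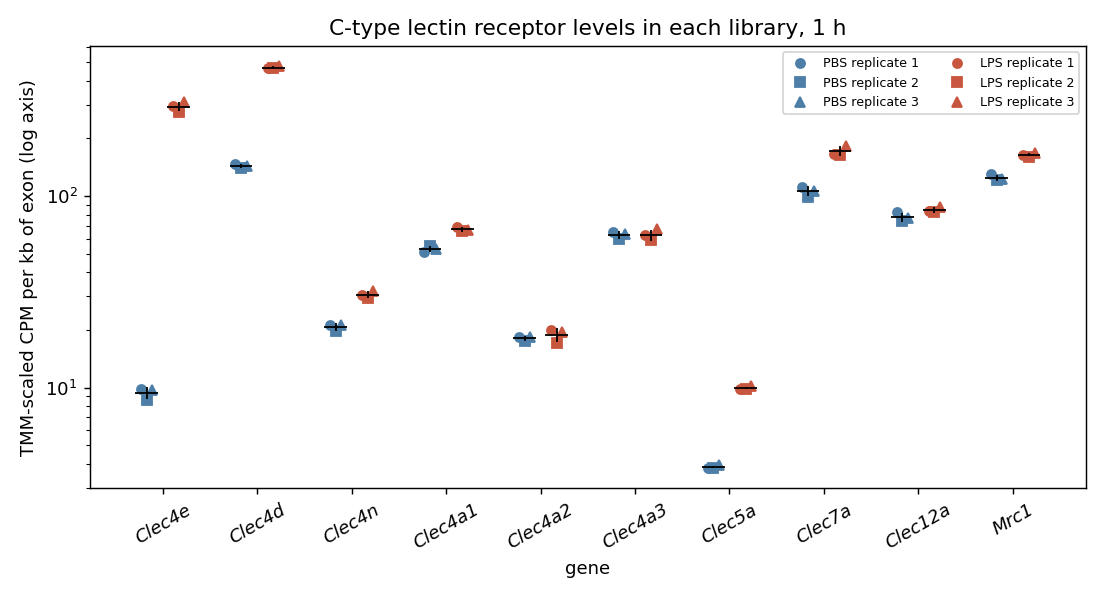
Level of each receptor gene in each library, as TMM-scaled CPM per kilobase of exon on a log axis; blue symbols are PBS and red symbols LPS, the shape gives the replicate, and black lines give the mean and SD of 3 libraries. Clec4e rose from 9.43 to 293.2, while the groups of Clec4a2 and Clec4a3 overlapped.

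The upstream sequences of the 3 genes that rose past both criteria are printed first. Clec4a1, at the other end of the gene cluster of Clec4e, had a log2 fold change of 0.34 with TMM scaling and -0.06 with library size alone. Its upstream sequence is printed too, so that the sequences can be read beside the values. Each is the 250 bases before a RefSeq start on GRCm38.p6, read 5′ to 3′ on the gene's strand. The windows are chr6:123289872-123290121 (minus strand) for Clec4e, chr6:123261857-123262106 (plus) for Clec4d, chr6:40585806-40586055 (minus) for Clec5a and chr6:122921598-122921847 (plus) for Clec4a1. The RefSeq starts lie 1, 4, 16 and 0 bases from the GENCODE M21 5′ ends of these genes. Capitals mark matches to 4 motifs searched on both strands: kappa-B (GGANNTNCC), AP-1 (TGANTCA), C/EBP (TTGCNNAA) and the PU.1 core (GAGGAA, or TTCCTC on the other strand).
Clec4e: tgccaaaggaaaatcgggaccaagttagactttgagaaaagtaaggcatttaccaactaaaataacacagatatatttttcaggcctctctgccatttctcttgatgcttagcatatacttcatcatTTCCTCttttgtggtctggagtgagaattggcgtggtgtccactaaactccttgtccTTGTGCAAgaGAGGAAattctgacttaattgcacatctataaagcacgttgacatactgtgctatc
Clec4d: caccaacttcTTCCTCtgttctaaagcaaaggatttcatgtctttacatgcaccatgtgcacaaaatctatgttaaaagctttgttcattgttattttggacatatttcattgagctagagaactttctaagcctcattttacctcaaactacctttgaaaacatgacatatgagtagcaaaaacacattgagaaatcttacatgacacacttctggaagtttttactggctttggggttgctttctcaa
Clec5a: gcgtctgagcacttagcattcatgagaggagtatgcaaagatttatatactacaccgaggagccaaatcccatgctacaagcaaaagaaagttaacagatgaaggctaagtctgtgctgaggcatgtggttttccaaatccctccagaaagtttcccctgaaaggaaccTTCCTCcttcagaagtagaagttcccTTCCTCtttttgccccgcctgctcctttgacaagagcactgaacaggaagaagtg
Clec4a1: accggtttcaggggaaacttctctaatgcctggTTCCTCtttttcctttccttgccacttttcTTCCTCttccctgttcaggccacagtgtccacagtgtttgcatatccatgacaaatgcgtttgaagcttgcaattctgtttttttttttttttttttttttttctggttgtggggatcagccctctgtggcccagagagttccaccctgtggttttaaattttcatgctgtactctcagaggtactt

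In the Clec4e window, PU.1 core matches lay 123 to 118 and 56 to 51 bases before the start, and a C/EBP match lay 66 to 59 bases before it, next to the nearer PU.1 core. The Clec4d window held 1 PU.1 core match and the windows of Clec5a and Clec4a1 held 2 each. RefSeq windows were found for 9 of the 10 genes, 11 windows in all. A PU.1 core match stood in 9 of these windows, or 81.8%, beside 23.3% of all 32851 windows in the table, and 8 of the 9 genes had it, Clec4a2 being the exception. The 2 windows of Clec7a lie 6 bases apart and hold the same match, so it is counted 2 times, and the 2 windows of Clec4a3 also overlap. PU.1 is a transcription factor that myeloid cells depend on. The C/EBP motif was found in Clec4e and Clec12a, against 9.56% of all windows, the AP-1 motif in Clec12a, against 6.75%, and the kappa-B motif in Mrc1, against 12.2%. No match overlapped one of another motif. The windows used for Clec4a2 and Clec12a start 16262 and 7553 bases from the GENCODE 5′ end of their genes. A match describes letters in the window and was not tested as a site of binding, and genes with and without a rise shared the PU.1 core.

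Clec4e, which encodes Mincle, a receptor for mycobacterial cord factor and fungal glycolipids, showed the largest change of the 10. It had 2324, 1947 and 2240 counts in the PBS libraries and 49190, 44725 and 52129 in the LPS libraries. Every LPS library lay far above every PBS library, and the replicates of a group stayed close together. In CPM, PBS libraries averaged 46.8 ± 3.23 and LPS libraries 1455.9 ± 81.2 (SD, n = 3), a 31.1-fold rise. The log2 fold change was 4.96 ± 0.06 (SE), with a 95% interval from 4.84 to 5.08 and an adjusted p of 7.94e-22 in edgeR's test. Within the 3 batch numbers the log2 ratio lay between 4.91 and 4.99. Ranked from the largest rise, Clec4e stood at 199 of 15687 tested genes, and its level per kilobase moved from percentile 75.3 of the tested genes in PBS to 99.1 in LPS.

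Clec4d encodes MCL, a partner of Mincle that forms heteromers with it and also uses the Fc receptor gamma chain. It had 11258, 10106 and 10554 counts with PBS and 24993, 24209 and 25990 with LPS. The groups were well apart, from a PBS level already high among the tested genes, at percentile 98.7 per kilobase. The scaled level went from 229.6 ± 6.42 to 750.0 ± 11.9 CPM (SD, n = 3), 3.27-fold, with a log2 fold change of 1.71 ± 0.03 (SE) and an adjusted p of 5.13e-18 in edgeR's test. Clec4n, or Dectin-2, which binds fungal mannans, had 1431, 1261 and 1399 counts with PBS and 1448, 1361 and 1553 with LPS. Its raw counts overlapped between the groups, and its scaled levels, 29.4 ± 1.32 and 43.5 ± 1.99 CPM (SD, n = 3), did not. The log2 fold change was 0.56, with an interval from 0.46 to 0.67 and an adjusted p of 1.03e-08, under the criterion on the fold. Clec4e, Clec4d and Clec4n, the 3 members described above as using the Fc receptor gamma chain, thus rose by the adjusted p. Of all tested genes, 32.9% rose by it. With library size alone these 3 also rose, Clec4e at 4.55, Clec4d at 1.30 and Clec4n at 0.16, beside 15.01% of all tested genes. Clec5a at 0.96 and Clec7a at 0.29 rose by the adjusted p there too, so the rise was not particular to these 3. Other genes that use this chain were not gathered as a group.

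Clec5a, or MDL-1, pairs with DAP12 and is known as a receptor for flaviviruses. It was the least abundant of the 10 per kilobase in both groups. The 3 PBS libraries held 700, 664 and 696 counts and the 3 LPS libraries 1276, 1234 and 1328. No LPS count came near a PBS count, and the batch numbers gave almost equal log2 ratios, from 1.36 to 1.37. The scaled level rose 2.58-fold, from 14.8 ± 0.222 to 38.3 ± 0.647 CPM (SD, n = 3), with a log2 fold change of 1.37 ± 0.05 (SE) and an adjusted p of 2.13e-14 in edgeR's test. With library size alone its log2 fold change was 0.96, just under the criterion on the fold, so that 2 of the 10 genes then rose past both criteria.

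Clec7a encodes Dectin-1, the receptor for fungal beta-glucans. It had 14089, 11859 and 13009 counts with PBS and 14750, 14178 and 16497 with LPS. The scaled levels of 280.1 ± 16.8 and 452.9 ± 27.7 CPM (SD, n = 3) did not overlap between the groups. The log2 fold change of 0.69 had an interval from 0.60 to 0.79 and an adjusted p of 2.84e-10, and it stayed above 0 with library size alone, at 0.29. GENCODE M21 lists Clec7a as a polymorphic pseudogene, a class for genes that are annotated as disrupted in the reference and intact in other haplotypes. The longest coding sequence annotated for it held 1 stop inside when translated. The gene has 4 annotated transcripts and the counts are per gene, so they cannot show whether an intact protein is made in these cells. Mrc1, the endocytic mannose receptor, had the highest raw counts of the 10 in PBS, 39500, 35077 and 36037, against 35198, 33485 and 36496 with LPS. Its raw counts thus lay in the same range, and its scaled level was 795.7 ± 29.4 and 1049.0 ± 23.2 CPM (SD, n = 3). The log2 fold change of 0.40 passed the adjusted p (1.83e-08 in edgeR's test) under TMM scaling. It was 0.42 with RLE size factors and 0.26 with upper quartile scaling, both past the adjusted p. With library size alone it was -0.01, with an adjusted p of 0.884, so the rise of Mrc1 depended on the scaling.

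The DCIR group, Clec4a1, Clec4a2 and Clec4a3, lies in the same gene cluster as Clec4e. Clec4a1 had 3777, 3870 and 3801 counts with PBS and 3623, 3342 and 3516 with LPS, and a log2 fold change of 0.34 (adjusted p 2.91e-07), which was -0.06 under library size alone. Its scaled levels of 82.5 ± 3.17 and 104.6 ± 2.98 CPM (SD, n = 3) were apart. Clec4a2, which carries the inhibitory motif, had 2559, 2312 and 2489 counts with PBS and 1955, 1630 and 1946 with LPS. Its scaled levels, 53.0 ± 1.54 and 55.1 ± 4.52 CPM (SD, n = 3), overlapped, and the log2 fold change of 0.06 had an interval from -0.05 to 0.17 and an adjusted p of 0.322. Leaving out LPS replicate 2, the lowest LPS library of Clec4a2, gave 0.12 with an adjusted p of 0.0167. Clec4a3 had 4119, 3578 and 3890 counts with PBS and 2784, 2546 and 3025 with LPS. On the scaled measure the groups overlapped at 83.3 ± 3.75 and 83.3 ± 5.45 CPM (SD, n = 3), an LPS to PBS ratio of 0.999 whose log2 interval ran from -0.10 to 0.10 (adjusted p 0.988). Library size alone gave -0.35 for Clec4a2 (adjusted p 9.80e-06) and -0.41 for Clec4a3 (adjusted p 4.49e-07), and upper quartile scaling gave -0.08 and -0.14, so neither gene has a direction that holds across scalings.

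Clec12a, or MICL, an inhibitory receptor for uric acid crystals and dead cells, had 21636, 18571 and 19515 counts with PBS and 15571, 14882 and 16503 with LPS. The scaled levels were 429.5 ± 22.4 and 468.3 ± 14.9 CPM (SD, n = 3), and the lowest LPS library, at 456.0 CPM, lay just above the highest PBS library, at 454.4 CPM. The log2 fold change of 0.12 ± 0.04 (SE) had an adjusted p of 0.00992 in edgeR's test. It lost this call without PBS replicate 2 (0.09, adjusted p 0.0570) or without LPS replicate 3 (0.10, adjusted p 0.0586), and turned to -0.28 with library size alone and to -0.02 with upper quartile scaling. The within-batch log2 ratios of Clec12a were 0.03, 0.15 and 0.20.

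**Figure D2:**
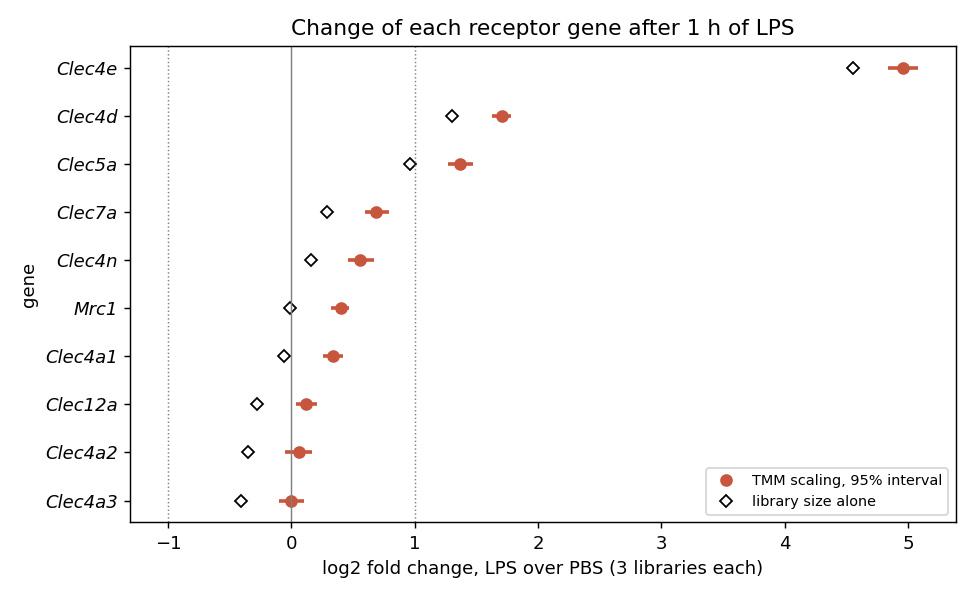
Log2 fold change of each receptor gene, LPS over PBS; red points and bars are the TMM fit with its 95% interval, open diamonds the same genes scaled by library size alone, and dotted lines the criterion of the study. Clec4e and Clec4d stayed above 1 under both scalings, Clec5a moved from 1.37 to 0.96, and 5 genes were below 0 with library size alone.

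Per kilobase of exon, levels of different genes can be set side by side within a group. In PBS the order by mean level was Clec4d at 143.6, Mrc1 at 124.9, Clec7a at 106.2, Clec12a at 77.7, Clec4a3 at 62.8, Clec4a1 at 52.9, Clec4n at 20.7, Clec4a2 at 18.1, Clec4e at 9.43 and Clec5a at 3.86 CPM per kilobase. The ranges of the 3 libraries did not overlap between any neighbours in this order. In LPS the order was Clec4d at 469.1, Clec4e at 293.2, Clec7a at 171.7, Mrc1 at 164.7, Clec12a at 84.7, Clec4a1 at 67.1, Clec4a3 at 62.8, Clec4n at 30.6, Clec4a2 at 18.8 and Clec5a at 9.97 CPM per kilobase. Here Clec7a and Mrc1 overlapped, as did Clec4a1 and Clec4a3. Clec4e thus moved from rank 9 to rank 2, while Clec4d was first and Clec5a last in both groups. Taking the longest transcript as the length exchanged Clec7a with Clec12a and Clec4n with Clec4a2 in the PBS order and changed no rank in the LPS order.

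The make-up of the receptor transcripts within a library does not depend on the scaling between libraries. The share of Clec4e in the summed level per kilobase of the 10 genes went from 1.52% ± 0.0674 in PBS to 21.4% ± 0.509 in LPS (SD, n = 3). Clec4d went from 23.2% ± 0.144 to 34.2% ± 0.661, and Clec5a from 0.623% to 0.727%. The other 7 genes took smaller shares in every LPS library than in any PBS library, among them Mrc1 with at least 19.8% in PBS and at most 12.1% in LPS. On average Clec7a took 17.1% and 12.5%, and Clec12a 12.5% and 6.17%. A share also falls when other members rise, so it cannot show whether the level of a gene itself fell. The ratio of Clec4e to Clec4d per kilobase was 0.0665, 0.0621 and 0.0684 in the PBS libraries and 0.634, 0.595 and 0.646 in the LPS libraries. Clec4d over Clec4n went from 6.93 ± 0.214 to 15.3 ± 0.467 and Clec7a over Clec12a from 1.37 ± 0.0294 to 2.03 ± 0.0603 (SD, n = 3). In these 3 ratios the groups did not overlap, and each had an exact two-sided permutation p of 0.1, the smallest that 3 against 3 libraries can give.

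**Figure D3:**
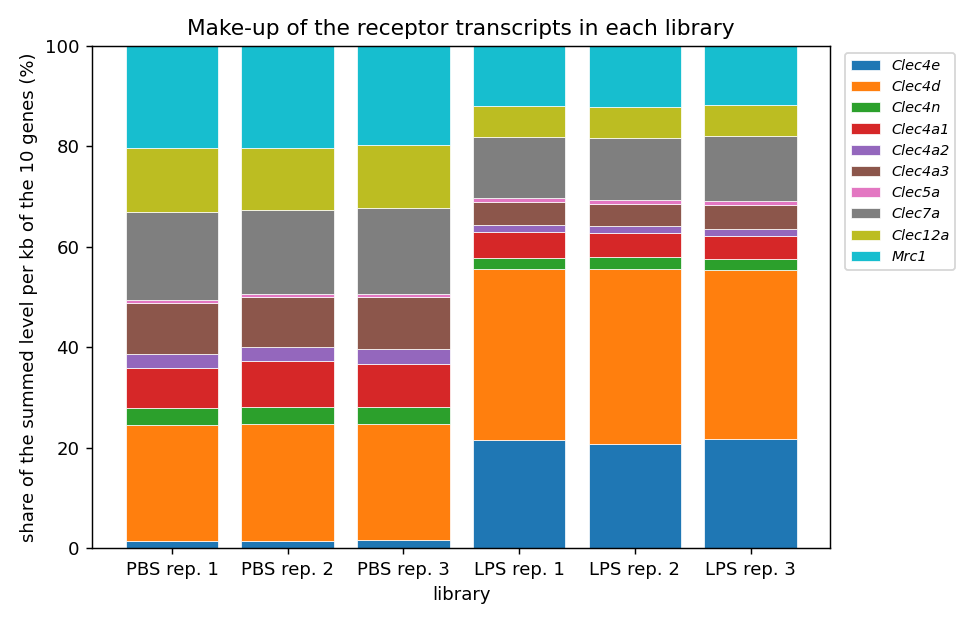
Share of each receptor gene in the summed level per kilobase of the 10 genes, in percent, with 1 stacked bar per library. Clec4e took 1.45 to 1.58% of the sum in the PBS libraries and 20.8 to 21.7% in the LPS libraries.

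Of the 10 genes, 9 lie on chromosome 6 and Mrc1 on chromosome 2. On GRCm38, 6 of them stand within 368.0 kb (chromosome 6, 122921848 to 123289870), in the order Clec4a1, Clec4a3, Clec4a2, Clec4n, Clec4d and Clec4e. Clec4d and Clec4e are neighbours with their 3′ ends facing each other, 6523 bp apart, and Clec4n ends 15089 bp before Clec4d. The log2 fold changes from Clec4n to Clec4e were 0.56, 1.71 and 4.96, while the 3 genes at the other end lay between -0.00 and 0.34. Of the 7 other annotated genes between them, Clec4a4 and Clec4b1 were tested. Clec4a4, a further DCIR gene, had 60, 61 and 55 counts with PBS and 25, 25 and 27 with LPS and a log2 fold change of -0.72 (adjusted p 0.00327), and Clec4b1 was at 0.02 (adjusted p 0.884). Beyond the ends, the nearest tested genes were Necap1 at -0.70, which passed the adjusted p, and Cd163 at 0.11, which did not pass.

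**Figure D4:**
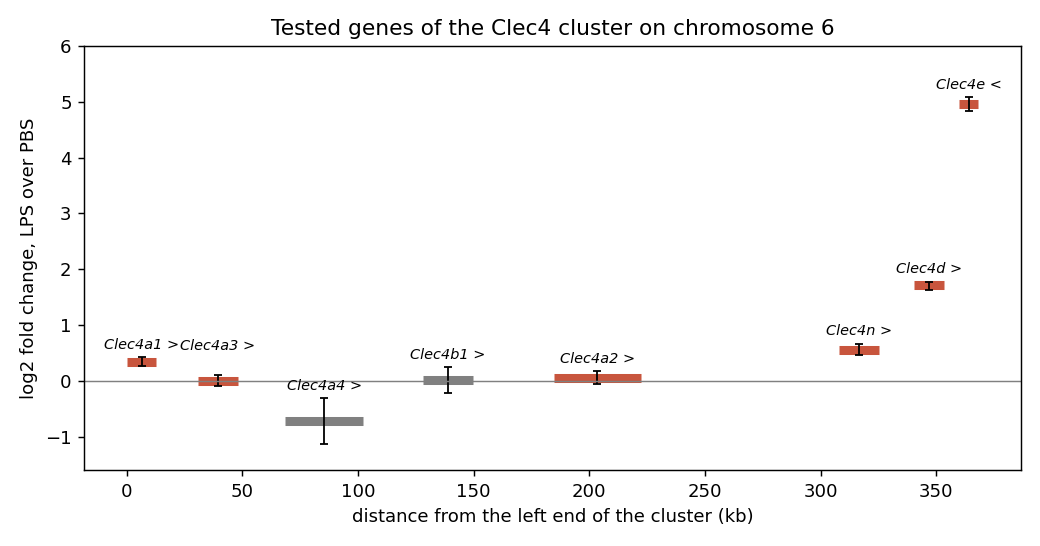
Log2 fold change, LPS over PBS, of the 8 tested genes of the Clec4 cluster against distance from the left end of the cluster in kb; red bars are the receptor genes described here, grey bars Clec4a4 and Clec4b1, bar length is the gene's extent, whiskers are 95% intervals and the arrowhead after a name gives its strand. Clec4e, at the right end, stood at 4.96 and its neighbour Clec4d at 1.71.

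Clec12a and Clec7a lie 96287 bp apart in the Dectin-1 cluster (chromosome 6, 129342691 to 129472779). Between them, Clec1b, Clec9a and Clec1a had log2 fold changes of -0.25, 0.38 and 0.21, none of which passed the adjusted p, and Clec12b had 0 counts in all 6 libraries. The nearest tested genes beyond the ends were Cd69 and Olr1. Clec5a lies at chromosome 6, 40574894 to 40585821, on the minus strand, between Ssbp1 at -0.64 and Mgam at 1.81, and Mrc1 at chromosome 2, 14229392 to 14332057, on the plus strand, between Gm37499 at -0.95 and Slc39a12 at 0.36. None of the 10 shared exon sequence with an overlapping gene. Mir511 lies within an intron of Mrc1 on the same strand, with at most 35 counts in a library.

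The members include neighbouring relatives, so sequence that fits several genes was counted. Between the annotated proteins, identity was 57% for Clec4a2 and Clec4a3, 54% for Clec4a1 and Clec4a3, 41.6% for Clec4d and Clec4n and 38.3% for Clec4e and Clec4d, as a share of the shorter protein. In windows as long as a sequencing read, 2.11% of the windows in Clec4a2 transcripts also occurred in transcripts of other genes, and 0% in those of the other 9. With 50-base windows this share was 6.83% for Clec4a2, 0.686% for Clec4n, 0.457% for Clec12a and 0% for the other 7. The shared Clec4a2 windows occurred in transcripts of 447 other genes, of which only Clec4a4 and Clec4b1 had a Clec name. Those of Clec12a occurred in 75 other genes, none with a Clec name. How the authors' counting treated reads that fit several places is not given in the sources used here, and Clec4a2 is the member it touches most.

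The 5 tested genes whose profile over the 6 libraries lay closest to that of Clec4e, by Euclidean distance of centred log2 CPM, were Serpinb2 (0.0921), Fosl2 (0.204), Gm25271 (0.225), Nlrp3 (0.238) and Gm48204 (0.252), where the median over all tested genes was 6.10. Serpinb2, a serine protease inhibitor, had 100, 85 and 96 counts with PBS and 2302, 1958 and 2403 with LPS. Fosl2, an AP-1 subunit, went from 26.0 ± 0.467 to 838.0 ± 17.02 CPM, and Nlrp3, the inflammasome sensor, from 46.4 ± 0.568 to 1530.6 ± 43.4 CPM (SD, n = 3). With groups this far apart, the distance mostly states a like size of rise, from 5.01 to 5.04 on the log2 scale in these 3 genes. Gm25271 had 0 counts in every PBS library and 50 to 58 in the LPS libraries, so its place rests on the prior count of 2 used for log2 CPM.

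Downstream of the receptors, 26 signalling genes were listed and all were tested. Past both criteria 3 rose, Malt1, Src and Bcl10, and 0 fell, as with DESeq2 and limma voom and at an unadjusted p under 0.05. The 3 of 26 are a share near the 10.5% of all tested genes that rose past both criteria, where 10.4% fell. By the adjusted p 15 rose and 4 fell under TMM scaling, beside 32.9% and 34.9% of all tested genes, and 6 rose and 20 fell with library size alone, beside 15.01% and 65.9%. The median was 0.17, and -0.23 with library size alone. Malt1, the protease of the Card9-Bcl10-Malt1 complex, had 3926, 3783 and 3997 counts with PBS and 32450, 30479 and 33058 with LPS, a log2 fold change of 3.51 ± 0.04 (SE) with an adjusted p of 4.12e-22. Src, a kinase that phosphorylates activating motifs, stood at 2.47 ± 0.06 (adjusted p 1.63e-16), from 329 to 371 counts with PBS to 1337 to 1472 with LPS. Bcl10, the scaffold of the complex, rose by 1.16 ± 0.04 (adjusted p 1.84e-14), which was 0.75 with library size alone.

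The members of that complex moved unequally. Card9, its adaptor, had 2215, 2114 and 2027 counts with PBS and 1386, 1337 and 1365 with LPS, and a log2 fold change of -0.17 (adjusted p 0.00211), below 0 under all 4 scalings. Syk, the kinase above it, had 20856, 19459 and 19653 counts with PBS and 27640, 27829 and 28287 with LPS, a log2 fold change of 0.95 ± 0.03 (SE, adjusted p 1.70e-14) and of 0.55 with library size alone. Fcer1g, the Fc receptor gamma chain itself, had 12783, 12592 and 12781 counts with PBS and 10884, 10116 and 10388 with LPS, and Tyrobp, which encodes DAP12, had 39944, 38708 and 39910 with PBS and 32345, 30551 and 32303 with LPS. The log2 fold changes of Fcer1g and Tyrobp were 0.19 and 0.15 with TMM scaling and -0.22 and -0.25 with library size alone, all past the adjusted p, so their direction turned with the scaling. By role, 2 of 3 adaptors rose and 0 fell by the adjusted p, 4 of 8 kinases rose and 1 fell, 4 of 8 effectors rose and 1 fell, and 5 of 7 brakes rose and 2 fell, all under TMM scaling and beside 32.9% and 34.9% of all tested genes. With library size alone 0 adaptors rose and 3 fell, 3 kinases rose and 5 fell, 2 effectors rose and 6 fell, and 1 brake, Cbl, rose and 6 fell, beside 15.01% and 65.9%, so the counts by role depended on the scaling.

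**Figure D5:**
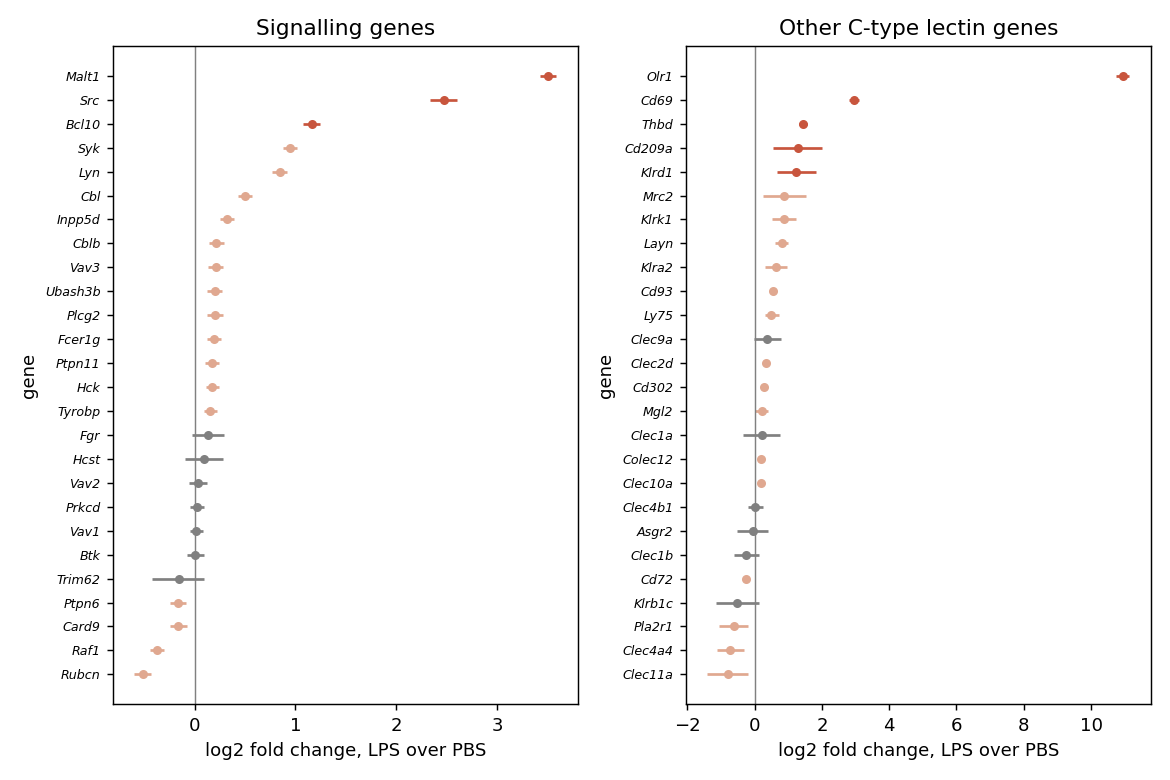
Log2 fold change with 95% interval, LPS over PBS under TMM scaling, of the 26 tested signalling genes (left) and the 26 tested further C-type lectin genes (right); red passed both criteria, pale red the adjusted p alone, grey neither. Malt1 led the left panel at 3.51, while Olr1, whose fitted 10.94 rests on 2 or 3 counts per PBS library, led the right panel.

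Of 43 further C-type lectin genes, 26 were tested, and 6 of the others had 0 counts in all libraries. Past both criteria 5 rose and 0 fell under TMM scaling, with DESeq2 and with limma voom. Under TMM scaling 10.5% of all tested genes rose and 10.4% fell past them. With library size alone 3 rose and 3 fell, beside 1213 and 2964 of all 15687 tested genes. Without PBS replicate 2 the rises numbered 8, beside 1738 of the 15997 genes tested then. By the adjusted p 16 rose and 4 fell, beside 32.9% and 34.9% of all tested genes, and 14 rose and 1 fell with DESeq2. With library size alone 8 rose and 10 fell, beside 15.01% and 65.9% of all tested genes, so the balance of the list turned with the scaling. Olr1, the LOX-1 receptor for oxidised low-density lipoprotein and the neighbour of Clec7a, had 3, 2 and 3 counts with PBS and 3884, 3883 and 4160 with LPS. The ratio of the scaled sums was 2066.5, with an exact 95% interval from 1048.4 to 4787.8 that covers counting error only. Cd69, an early activation antigen on the other side of Clec12a, had 173, 159 and 163 counts with PBS and 917, 881 and 983 with LPS, a log2 fold change of 2.96 ± 0.07 (SE, adjusted p 5.02e-17). Thbd, thrombomodulin, had 635, 535 and 562 counts with PBS and 1182, 1109 and 1082 with LPS, a log2 fold change of 1.43 ± 0.06 (SE, adjusted p 2.82e-13). Cd209a and Klrd1 also rose past both criteria, on at most 19 and 41 counts in a library.

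The libraries carried the markers of macrophages. The 8 listed genes summed to between 29945.5 and 31228.7 CPM with PBS and between 35886.5 and 36244.9 CPM with LPS. Lyz2 made up most of this sum, with means of 23272.3 and 24224.0 CPM, and Cd14 rose from 398.0 to 3622.8 CPM. By the adjusted p 6 of the 8 rose, Fcgr1 fell (-0.48) and Mertk did not pass. Neutrophil genes, 8 in the list, summed to between 41.3 and 44.3 and between 53.0 and 57.5 CPM, and 3 of the 7 tested rose by the adjusted p. Among them Ly6g, which defines neutrophils, had at most 3 counts in a library, and Elane, Camp and Cxcr2 at most 36. Others were well above the floor, with 805 to 982 counts for S100a9, 479 to 575 for S100a8, 280 to 390 for Ltf and 113 to 156 for Mpo. The 6 dendritic cell genes all rose by the adjusted p, 5 of them past both criteria, from between 4.22 and 5.64 CPM in sum to between 12.2 and 12.7 CPM. Their PBS counts were low: at most 2 in a library for Xcr1, under the floor of 3 counts, 10 for Cd209a and 19 for Zbtb46. Flt3, Ccr7 and Siglech had 35 to 118. Lymphoid genes summed to between 1.16 and 1.54 CPM and between 1.53 and 1.82 CPM, and 1 of the 2 tested, Ms4a1, rose by the adjusted p (0.0380). Mast cell and basophil genes summed to between 5.52 and 6.81 CPM and between 9.99 and 10.8 CPM, and all 3 tested rose by the adjusted p. Stromal genes summed to between 14.3 and 15.2 CPM and between 17.7 and 20.1 CPM, with 1 of 6 rising. These counts of marker genes rest on TMM scaling. Under it 32.9% of all tested genes rose and 34.9% fell by the adjusted p, and 10.5% rose past both criteria. Several of the receptors are also known from dendritic cells and neutrophils, and the part of such cells in the differences was not tested. In bulk RNA, a change in how many cells of a type are present and a change in RNA per cell cannot be told apart.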

How the data were processed

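Total RNA of BMDMs given PBS or LPS for 1 h was measured in 3 libraries per group, prepared with a stranded total RNA kit. Paired-end sequencing was aligned by the authors with HISAT2 2.1.0 against GRCm38. They handled alignments with SAMtools 1.17, made counts with featureCounts 2.0.0 and deposited the counts per gene without normalization. The annotation release, strand setting and treatment of reads that fit several genes are not given in the sources used here. Groups and replicate numbers came from the labels. Of 55335 identifiers, 55154 matched GENCODE M21 when versions were ignored. The members and gene lists were chosen with earlier results of these data known.

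Counts were fitted over the whole table with edgeR 4.0.16 in R 4.3.3 (filterByExpr, 15687 genes, TMM scaling, quasi-likelihood test, Benjamini-Hochberg adjustment), with the study's criteria (adjusted p below 0.05, log2 fold change beyond 1 in either direction). The study itself used DESeq2, which served here as an alternative (1.42.0), as did limma voom (3.58.1), other scalings and filters, and leaving out each library. Scripts were tested on simulated data. Levels are CPM over TMM-scaled library sizes, also per kilobase of the exon union in GENCODE M21. A count of 3 was taken as the floor, 0.0630 to 0.0919 CPM in these libraries, and covers counting error only. From the lists of signalling genes and further C-type lectins, up to 6 genes each were named by the size of their change among those past both criteria, with a mean of at least 50 counts and 1 direction in every same-numbered pair, with Syk, Card9, Fcer1g and Tyrobp always named. Other genes of those lists named here (Cd209a, Klrd1, Cbl, Clec4a4, Clec4b1, Clec1a, Clec1b, Clec9a and Clec12b) were named by their place in the loci or after their values were seen. Promoter sequences are RefSeq's. Replicate numbers are also the batch numbers of the labels, and they were used here to pair the libraries. Deviations of same-numbered libraries correlated at -0.0139, 0.0822 and 0.0387 across genes. Their mean was 0.0357, beside a mean of -0.0178 for different numbers, so the counts themselves show little sign of a pairing. Counts of replicates differed by more than sampling noise (chi-square per degree of freedom 5.44 to 20.5), so none was the same library deposited again.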

Additional observations from a re-analysis of the deposited data

How the results depend on the processing

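The alternatives moved the receptor genes mainly through the scaling between libraries. Of 150 values (15 alternatives for each of 10 genes), 133 kept their direction and side of the adjusted p threshold, 12 reversed, 3 newly passed and 2 no longer passed. Over all alternatives Clec4e lay at 4.55 or above, Clec4d between 1.30 and 1.73, Clec5a between 0.96 and 1.39, Clec7a between 0.29 and 0.73 and Clec4n between 0.16 and 0.59 on the log2 scale. With library size alone, which by construction lowers every value by the ratio of the TMM factors, Clec5a at 0.96 lost the criterion on the fold, Clec4a1 was -0.06, Clec4a2 -0.35, Clec12a -0.28 and Mrc1 -0.01, members rising and falling by the adjusted p numbered 5 and 3, the median was 0.08, and further lectins past both criteria numbered 3 higher and 3 lower. Over all genes, 1213 then rose and 2964 fell past both criteria, beside 1653 and 1624 with TMM. Upper quartile scaling gave -0.08 for Clec4a2, -0.02 for Clec12a, 1 member falling by the adjusted p and a median of 0.34. Clec4a3 was 0.02 with RLE size factors and 0.02 with DESeq2, and -0.05 to 0.04 when libraries were left out in turn. The median was 0.46 with no filter, where all 10 genes are the same but the scaling factors and the fit use 27479 genes. With libraries left out it was 0.45 to 0.50. Further lectins higher past both criteria numbered 3 with 10 counts required in every library, which removes genes from the test, 3 against a log2 fold change of 1, a stricter test, and 5 to 8 with libraries left out, 8 without PBS replicate 2. Lower ones numbered 0 to 1, 1 without LPS replicate 2. Where no construction is named the cause was not tested. In the paired fit with the replicate block, 3 members rose past both criteria and 8 by the adjusted p, with a median of 0.48, and the block changed no call. The filter on low counts left 17 of 43 further lectins untested.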

Other observations

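Values of further lectin genes are given here. Cd93, which takes part in the clearance of dying cells, had 37010, 33673 and 35674 counts with PBS and 38364, 36437 and 38540 with LPS, a log2 fold change of 0.56 (adjusted p 4.56e-11 in edgeR's test). Cd72, an inhibitory lectin best known from B cells, had 17666, 16935 and 16738 counts with PBS and 10412, 10429 and 10000 with LPS, a log2 fold change of -0.26 (adjusted p 3.65e-06). Clec2d, a ligand of an NK cell receptor, stood at 0.35 (adjusted p 7.87e-08) and at -0.06 with library size alone, while Cd93 at 0.16 and Cd72 at -0.67 kept their direction. Clec10a, a macrophage galactose-type lectin, had 3426 to 4582 counts in a library and a log2 fold change of 0.18 (adjusted p 6.71e-04), which was -0.23 with library size alone. Colec12, a scavenger receptor with a collagen-like stem, had 2156 to 2939 counts and 0.18 (adjusted p 7.22e-04), and -0.22 with library size alone. Of the 7 DC-SIGN genes in the list, 1 was tested, and Cd209b and Cd209g had 0 counts in every library. Of the 4 relatives of Mrc1, 3 rose and 1 fell by the adjusted p, Ly75 at 0.50 and Cd302 at 0.28 (-0.12 with library size alone) among the rises, and Pla2r1 at -0.62 on 27 to 56 counts with LPS. These genes were chosen after their values were seen.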
